A study of Homo sapiens with 6 samples.

Results

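The AP-1 family of transcription factors was followed in A375 cells, an established human melanoma line with a mutant BRAF gene, after short exposure to the cytokine TGFB1. The family was taken as 10 genes chosen by name: JUN, JUNB and JUND, which encode the JUN proteins, FOS, FOSB, FOSL1 and FOSL2, which encode the FOS proteins, and the related ATF3, BATF3 and MAFF. All 10 matched 1 row each among the 58051 genes of the deposited count table, and all 10 passed the filter on low counts. Both groups were deprived of serum for 2 h. TGFB1 libraries came from cells then given the human recombinant ligand at 10 ng/mL for 2 h, and Vehicle libraries from cells given its solvent, 4 mM HCl with 1 mg/mL BSA, for the same 2 h. There were 3 libraries of each group from 1 cell line, described by the submitters as technical triplicates, so the p-values measure only the spread between these libraries. The comparison asks which of these genes responded to TGFB1 within that time.

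AP-1 is a dimer of proteins with a basic DNA-binding region and a leucine zipper (bZIP). JUN proteins pair with each other or with FOS proteins, whereas FOS proteins need a JUN partner, and ATF3, BATF3 and the small MAF protein MAFF join related dimers. Several of the genes are immediate early genes, switched on within minutes to hours of a stimulus, and SMAD proteins, which carry the TGF-beta signal, are known to act together with AP-1 on shared target genes.

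Library totals ran from 24713894 to 34895075 counts. The spread between libraries was wider in Vehicle: the mean chi-square per gene was 25.1 between Vehicle replicates 1 and 3 and from 5.04 to 12.4 for the other within-group pairs, where counting error alone would give about 1. Of the melanocyte lineage markers, 3 of 8 reached a mean of 1 CPM (a gene's counts scaled to a common library size) in either group, and SOX10 was at 0 counts in every library. The summed CPM of the 8 ran from 121.1 to 137.0 in Vehicle and from 110.7 to 116.6 with TGFB1. MITF and S100B gave the most (means of 62.7 and 58.9 CPM in Vehicle and 53.5 and 54.6 with TGFB1). MITF was called lower with TGFB1 in the edgeR test described below (log2 fold change -0.23, adjusted p = 0.0355). Of the fibroblast, epithelial and immune markers, 3 of 6, 1 of 5 and 1 of 5 reached 1 CPM. Their summed CPM ran from 16.2 to 19.4, 14.2 to 16.8 and 6.23 to 7.79 in Vehicle and from 13.5 to 16.4, 14.9 to 18.7 and 5.71 to 6.67 with TGFB1, of which LUM, KRT14 and LYZ gave the most (means of 9.70, 14.5 and 6.63 CPM in Vehicle and 7.76, 16.5 and 6.05 with TGFB1). COL1A1, EPCAM and PTPRC had group means from 0.0930 to 0.263 CPM. The part of these markers in the results was not tested.

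Stretches of the promoters are shown for some members, with the pairs of gene and motif picked by hand. No searched motif was common to all of them, and a link between motif and response was not tested. The windows are those of RefSeq on GRCh38.p14, from 250 bases upstream up to the start. By symbol, 8 of the 10 genes matched, with 10 windows since ATF3 and MAFF have 2 starts each; FOSL1 and BATF3 did not. Capitals mark the searched motifs that a script found, and each stretch reads 5′ to 3′ on the gene's own strand. JUN and ATF3 rose, and each holds the cAMP response element (CRE) variant TGACATCA, shown at chr1:58784096-58784125 (minus strand) and chr1:212565232-212565321 (plus strand). JUNB and FOSB, the members with the largest rises, hold a TATA box close to the start, at chr19:12791396-12791485 and chr19:45467905-45467994 (both plus strand). FOS holds one as well, at chr14:75278783-75278812 (plus strand), and did not pass the test. JUND and MAFF, which did not pass either, hold the full CRE TGACGTCA, at chr19:18281785-18281872 (minus strand) and chr22:38201929-38201958 (plus strand). FOSL2, which rose and is not shown, held neither form of the CRE and no TATA box in its window.
JUN: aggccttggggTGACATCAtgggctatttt
ATF3: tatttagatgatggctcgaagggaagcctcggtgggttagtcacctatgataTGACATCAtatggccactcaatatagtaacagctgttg
JUNB: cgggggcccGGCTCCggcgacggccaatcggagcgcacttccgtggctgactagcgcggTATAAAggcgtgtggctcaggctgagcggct
FOSB: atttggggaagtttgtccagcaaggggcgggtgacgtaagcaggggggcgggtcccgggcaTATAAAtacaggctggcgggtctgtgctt
FOS: taaaacgcttgtTATAAAagcagtggctgc
JUND: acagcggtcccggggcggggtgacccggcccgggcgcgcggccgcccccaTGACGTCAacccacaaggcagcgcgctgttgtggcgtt
MAFF: ggccgggtcggTGACGTCAccgcatgactg

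The CRE variant began 67 bases upstream of the RefSeq start of JUN and 123 bases upstream of the first RefSeq start of ATF3. The annotations differ on some starts: in GENCODE 29 the JUN exon reaches out to 58784327 and the first FOS exon begins at 75278774, so the JUN and FOS stretches lie inside exons there. The MAFF stretch lies inside the outer bounds of MAFF in GENCODE 29 (38200767 to 38216511), while those of ATF3, JUNB, FOSB and JUND overlap no exon of their own gene. Searched on both strands, TGACATCA occurred in 2.38% of the 35116 windows of all genes, the full CRE in 1.65% and the TATA box, searched as TATAAA, in 10.7%. The TATA box lay 31, 30 and 33 bases upstream of the JUNB, FOSB and FOS starts, and 230 bases upstream of the second ATF3 start. GGCTCC, a GC-rich SMAD-binding sequence, lay 81 bases upstream of JUNB, 187 upstream of FOSL2 and 249 upstream of the first ATF3 start, and occurred in 30.6% of all windows. GGCGCC, another such sequence, occurred 2 times upstream of FOS and in 16.4% of all windows. The AP-1 site TGANTCA, the SMAD palindrome GTCTAGAC, the SMAD element CAGACA and the CArG box, the serum response factor site, had no match in the 10 windows, and occurred in 6.57%, 0.182%, 13.6% and 1.16% of all windows. Bases further upstream were not searched, so a motif without a match, such as the CArG box, may still lie outside these windows. A match describes letters in a short window and does not show that a factor binds there.

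Of the 10 family members, 5 rose with TGFB1 and 0 fell with an adjusted p below 0.05, from edgeR's quasi-likelihood test with Benjamini-Hochberg adjustment over all 16690 genes. Of all these genes 3.31% were called, 2.43% higher and 0.887% lower. The risers were FOSB, JUNB, ATF3, JUN and FOSL2, each at least 2-fold by the ratio of group means. DESeq2 and limma-voom also called 5 higher and 0 lower. At an unadjusted p under 0.05 there were 6, all higher, the additional gene being BATF3. Of all 16690 genes tested, 2048 had an unadjusted p under 0.05. The median log2 fold change of the 10 was 0.78, against -0.01 over all genes tested. These counts describe the family and are no test of it as a set. The members and the other gene lists were chosen with earlier results of these data known, so the counts are no independent evidence.

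**Figure D1:**
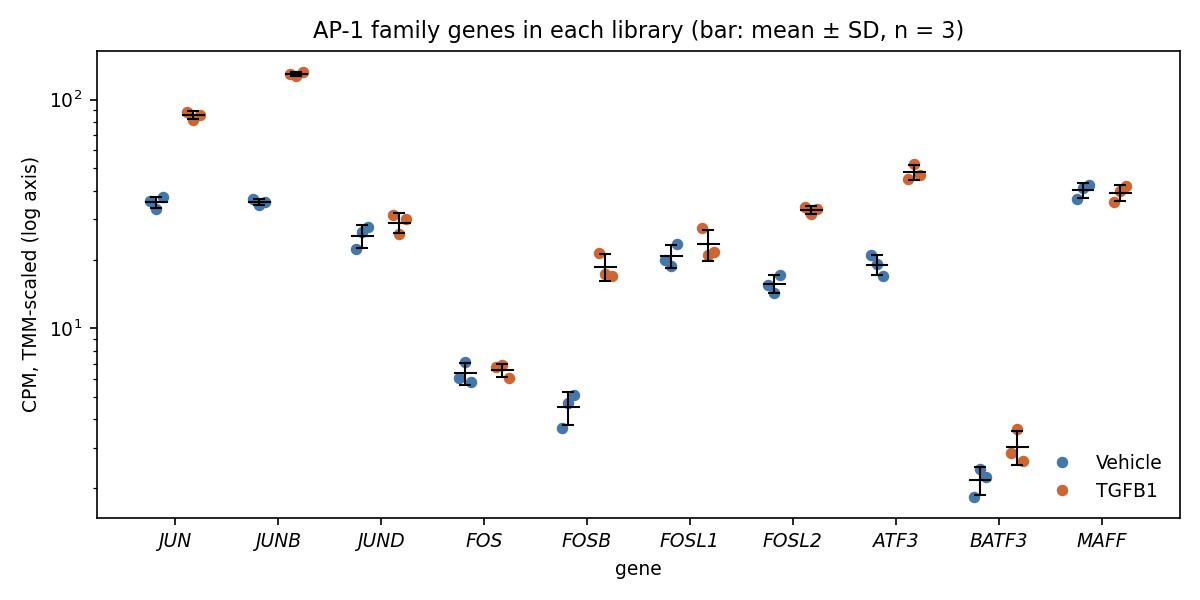
CPM of each AP-1 family gene (x axis) on a log axis, with 1 point per library, blue for Vehicle and orange for TGFB1, and bars for the mean ± SD over 3 libraries. The groups stand apart for JUN, JUNB, FOSB, FOSL2 and ATF3, by the widest step for FOSB (means of 4.52 and 18.5 CPM), while those of FOS, MAFF, JUND and FOSL1 overlap. For BATF3 they stand narrowly apart (highest Vehicle library 2.43 CPM, lowest TGFB1 library 2.64), as they do for 16.4% of all genes tested.

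Within the JUN subfamily, JUNB and JUN rose and JUND did not pass the test. JUNB encodes a JUN protein with weaker activating power than c-Jun that can restrain it. It stood at 36.7, 34.7 and 35.8 CPM in Vehicle replicates 1, 2 and 3 and at 129.4, 126.2 and 131.9 CPM with TGFB1. Every TGFB1 library was more than 3-fold above every Vehicle library, and the libraries within a group lay close together. The log2 fold change was 1.85 ± 0.06 (SE, adjusted p = 8.9e-22), and JUNB ranked 2 of 16690 by its p-value. The gene lies on chromosome 19 at 12791496 to 12793315 (GRCh38, GENCODE 29) as a single exon of 1820 bases. Of these, 259 (14.2%) overlap exons of HOOK2 on the opposite strand, and the strand setting of the counting is not given in the sources used here. HOOK2 itself had means of 8.80 ± 0.738 and 8.93 ± 0.333 CPM (SD, n = 3 each), with a log2 fold change of 0.02 (adjusted p = 0.981) that turned negative without Vehicle replicate 2 (-0.0471) or TGFB1 replicate 3 (-0.000229).

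JUN encodes c-Jun, the founding subunit of AP-1. It stood at 35.9, 33.3 and 37.5 CPM in Vehicle and at 88.5, 81.7 and 85.9 CPM with TGFB1. The groups did not overlap, and the ratio of their means was 2.40 (1.26 ± 0.06 SE on the log2 scale, adjusted p = 2.7e-16). JUN is a single exon of 3540 bases on chromosome 1 at 58780788 to 58784327.

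JUND, whose protein is present in most resting cells, stood at 22.1, 26.4 and 27.7 CPM in Vehicle and at 31.1, 25.7 and 30.1 CPM with TGFB1. TGFB1 replicate 2 lay below Vehicle replicates 2 and 3, so the groups overlapped. Its log2 fold change was 0.19, with a 95% interval from the edgeR fit of -0.0030 to 0.37 (adjusted p = 0.417), which leaves out a rise as large as that of JUN. The value was 0.10 without Vehicle replicate 1 and 0.27 without TGFB1 replicate 2.

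In the FOS subfamily the response divided FOSB and FOSL2, which rose, from FOS and FOSL1, which did not pass the test. FOSB encodes full-length FosB and, through splicing, a shorter form, which counts per gene do not separate. It stood at 3.68, 4.73 and 5.14 CPM in Vehicle and at 21.4, 17.2 and 17.0 CPM with TGFB1. Every TGFB1 library was more than 3-fold above the highest Vehicle library. The log2 fold change of 2.02 ± 0.14 (SE, adjusted p = 2.8e-13) was the largest of the family and ranked 28 of 16690 from the top. Behind it were 90 to 179 counts per library in Vehicle and 553 to 704 with TGFB1.

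FOSL2 encodes FRA-2, a FOS protein without the strong activation domain of c-Fos. It stood at 15.5, 14.3 and 17.2 CPM in Vehicle and at 33.9, 31.5 and 33.4 CPM with TGFB1. The groups were far apart relative to their spread, with SDs of 1.42 and 1.27 CPM. At 1.07 ± 0.09 (SE, adjusted p = 9.4e-11), its log2 fold change was the smallest among the 5 risers.

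FOS encodes c-Fos, the classical immediate early gene product, whose induction in many cells is brief. It was low in both groups, at 6.10, 7.16 and 5.86 CPM in Vehicle and 6.76, 6.90 and 6.08 CPM with TGFB1. The libraries of the groups were interleaved, with a log2 fold change of 0.05 (95% interval -0.26 to 0.35, adjusted p = 0.953), on 149 to 239 counts per library. That interval leaves out changes as large as those of the 5 risers at the single time sampled. Its sign turned without Vehicle replicate 3 (-0.0139).

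FOSL1 encodes FRA-1, a FOS protein known to accumulate in cells with high ERK activity. It stood at 19.9, 18.8 and 23.4 CPM in Vehicle and at 27.6, 20.9 and 21.6 CPM with TGFB1. TGFB1 replicate 1 was above all other libraries, while TGFB1 replicates 2 and 3 lay below Vehicle replicate 3. Its log2 fold change was 0.17 (95% interval -0.05 to 0.38, adjusted p = 0.570) with all libraries and 0.03 without TGFB1 replicate 1.

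Of the 3 relatives, ATF3 rose. ATF3 encodes a stress-inducible factor that binds CRE and AP-1 sites and often represses. It stood at 20.9, 19.1 and 17.0 CPM in Vehicle and at 45.1, 52.2 and 46.8 CPM with TGFB1. The lowest TGFB1 library was more than 2-fold above the highest Vehicle library. The log2 fold change was 1.34 ± 0.09 (SE, adjusted p = 7.8e-14). ATF3 spans chromosome 1 from 212565334 to 212620777.

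BATF3, whose protein lacks an activation domain and pairs with JUN proteins, was the least abundant member by CPM. Its values were 1.84, 2.43 and 2.24 CPM in Vehicle and 2.86, 3.64 and 2.64 CPM with TGFB1, on 45 to 126 counts per library. The groups did not overlap, which also held for 16.4% of all genes tested, but the gene did not pass the test (log2 fold change 0.48, 95% interval 0.01 to 0.95, adjusted p = 0.389).

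MAFF encodes a small MAF protein, which has no activation domain and works through CNC or BACH partners. It was the most abundant member in Vehicle by CPM, a scale that does not correct for gene length, at 36.7, 41.1 and 42.5 CPM, and stood at 35.7, 39.7 and 41.8 CPM with TGFB1. The groups overlapped almost entirely. Between the groups the log2 fold change was -0.04 (95% interval -0.20 to 0.12, adjusted p = 0.909), and it was above 0 without Vehicle replicate 3 (0.00481) or TGFB1 replicate 1 (0.0227).

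**Figure D2:**
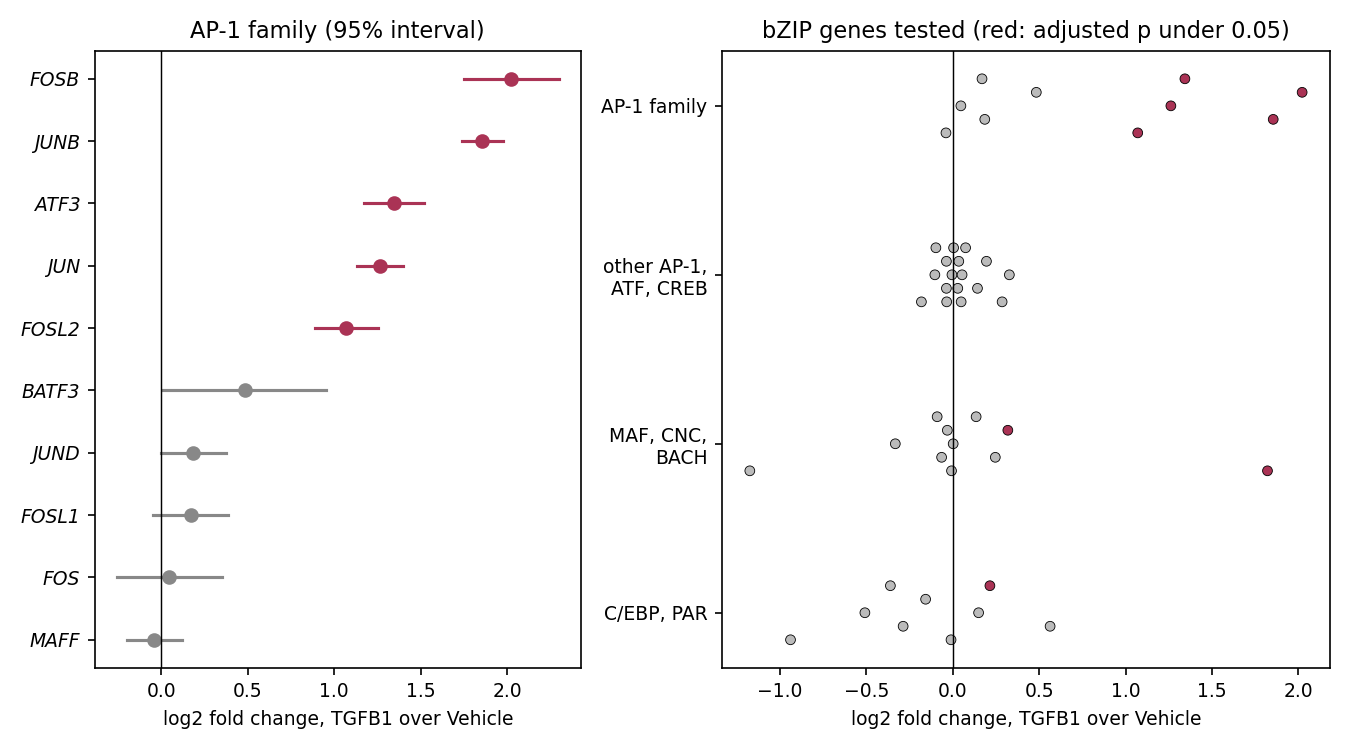
Left, log2 fold change of TGFB1 over Vehicle (x axis) for each family member, with its 95% interval from the edgeR fit. Right, the same quantity for the family and for other bZIP genes tested, 1 point per gene, red where the adjusted p was under 0.05. The 5 risers of the family lie between 1.07 and 2.02, and 3 of 37 other bZIP genes are red, against 3.31% of all genes tested.

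To compare levels between genes, CPM was divided by the length of all annotated exons in kb. On this scale JUNB was the highest member in both groups, at 19.6 ± 0.550 CPM per kb in Vehicle and 71.0 ± 1.56 with TGFB1 (SD, n = 3 each). In Vehicle it was followed by JUND (13.6 ± 1.56), FOSL1 (11.0 ± 1.27) and JUN (10.0 ± 0.586), of which neither JUND and FOSL1 nor FOSL1 and JUN were separated by more than their summed SDs. MAFF (7.14 ± 0.536) and ATF3 (4.70 ± 0.487) came next. FOSL2 (2.19 ± 0.198) and FOS (1.97 ± 0.214) lay within their spread of each other, as did FOSB (0.814 ± 0.136) and BATF3 (0.800 ± 0.111). With TGFB1 the order became JUNB, JUN (24.1 ± 0.968), JUND (15.6 ± 1.54), FOSL1 (12.4 ± 1.95), ATF3 (11.9 ± 0.920), MAFF (6.96 ± 0.555), FOSL2 (4.60 ± 0.177), FOSB (3.34 ± 0.451), FOS (2.03 ± 0.136) and BATF3 (1.12 ± 0.193). JUND and FOSL1, and FOSL1 and ATF3, were within their summed SDs.

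Among 13302 protein-coding genes tested, the per-length level of JUNB was at percentile 82.3 in Vehicle and 95.6 with TGFB1. JUN went from percentile 68.8 to 85.7, ATF3 from 51.7 to 72.1, FOSL2 from 36.5 to 50.8 and FOSB from 22.2 to 44.1. FOS was at percentiles 34.6 and 34.8. FOSB had the largest fold change from one of the lowest starting levels, and the per-length level of FOSL1 was above that of FOSB in both groups.

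The make-up of each subfamily was computed within libraries, as each member's share of the summed counts per kb, so that library size cancels. JUNB made up 47.8%, 44.7% and 43.6% of the JUN subfamily in Vehicle replicates 1, 2 and 3 and 63.0%, 65.3% and 64.2% with TGFB1. JUND made up 28.2%, 33.2% and 33.0% in Vehicle and 14.8%, 13.0% and 14.3% with TGFB1. The groups did not overlap for either share. As parts of the same sum, these shares are not separate results. With JUNB and JUN higher, the share of JUND falls even at an unchanged level. JUND itself did not pass the edgeR test (log2 fold change 0.19), so its lower share shows no fall in its own level. The share of JUN was 23.2 ± 1.00% and 21.8 ± 0.342% (SD, n = 3 each), with overlapping libraries, while its level was 2.40-fold higher. In an exact two-sided permutation test, 3 libraries against 3 cannot go below p = 0.1, which was the value for JUNB and JUND (0.117 adjusted over 7 shares). The p for JUN was 0.2 in the same exact test. By plain counts, the mean shares of JUNB and JUN were 37.0% and 36.8% in Vehicle and 53.1% and 35.1% with TGFB1.

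FOSL1 held the largest per-length share of the FOS subfamily in every library, at 69.1%, 66.3% and 70.7% in Vehicle and 57.8%, 53.4% and 54.4% with TGFB1. FOSB went from a mean of 5.10 ± 0.680% to 14.9 ± 0.371%, and FOSL2 from 13.7 ± 0.443% to 20.7 ± 1.79% (SD, n = 3 each). FOS went from 12.5 ± 2.20% to 9.16 ± 1.05%. The groups did not overlap for any of the 4 shares, FOS by the least (10.319% in Vehicle replicate 3 against 10.306% in TGFB1 replicate 2). Each had the smallest p that the exact permutation test allows (p = 0.1, 0.117 adjusted). As parts of the same sum, the 4 shares are not separate results. With FOSB and FOSL2 higher, the shares of FOS and FOSL1 fall even at unchanged levels. Neither FOS nor FOSL1 passed the edgeR test (log2 fold changes of 0.05 and 0.17), so their lower shares show no fall in their own levels. Shares depend on the annotated lengths: by plain counts FOSL1 made up 43.8% in Vehicle and 28.6% with TGFB1, against 33.1% and 40.6% for FOSL2. The FOS share differed by -5.47 percentage points by plain counts and by -3.29 per kb.

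**Figure D3:**
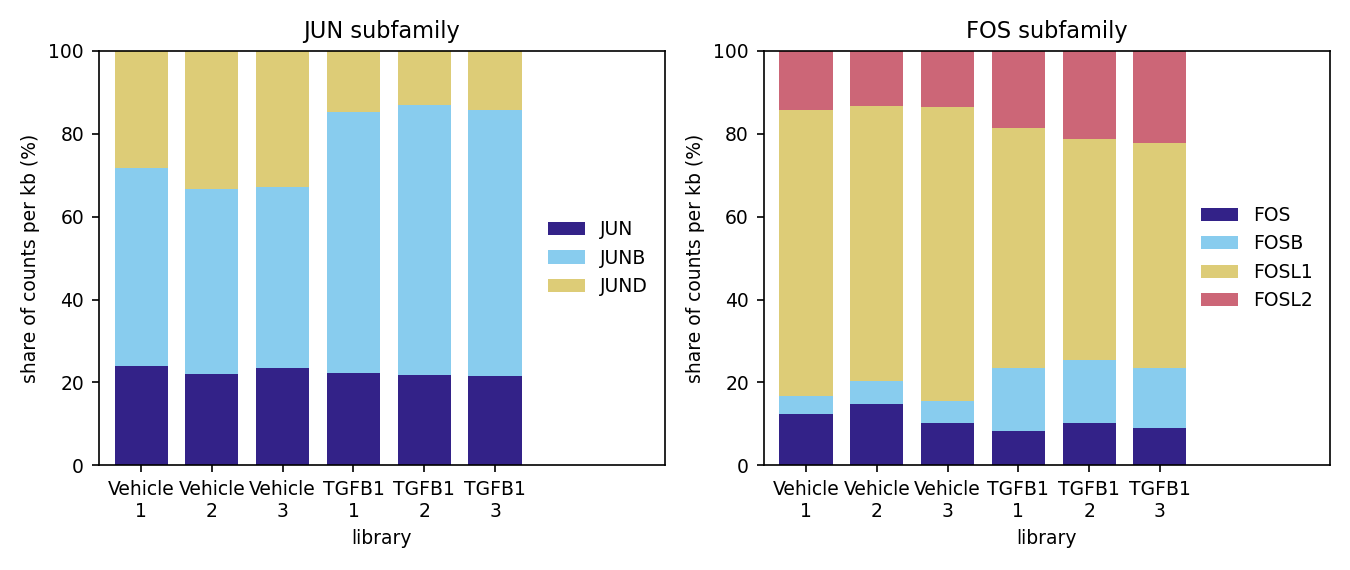
Share of each gene in the summed counts per kb of the JUN subfamily (left) and the FOS subfamily (right), in percent, with 1 stacked bar per library. JUNB takes 63.0% to 65.3% of the JUN subfamily in the TGFB1 libraries against 43.6% to 47.8% in Vehicle, and FOSL1 is the largest part of the FOS subfamily in all 6 on this per-length scale.

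The summed level of the JUN subfamily was 43.3 ± 1.57 CPM per kb in Vehicle and 110.6 ± 3.81 with TGFB1, and that of the FOS subfamily 16.0 ± 1.38 and 22.4 ± 2.56 (SD, n = 3 each). Neither sum overlapped between the groups. FOS subfamily genes made up 26.6%, 26.1% and 28.0% of both sums together in Vehicle and 18.3%, 16.3% and 15.7% with TGFB1. The sums and these percentages depend on the annotated lengths, which are longer for FOSB and FOSL2 (5553 and 7157 bases) than for FOSL1 (1887). All of these values are levels of RNA, and the proteins and dimers were not measured.

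Ratios between members were taken within each library from counts per kb. The log2 ratio of JUNB to JUN was 0.97 ± 0.07 in Vehicle and 1.56 ± 0.04 with TGFB1 (SD, n = 3 each), that of JUNB to JUND 0.53 ± 0.20 and 2.19 ± 0.12, and that of JUN to JUND -0.44 ± 0.19 and 0.64 ± 0.09. In the FOS subfamily, FOSB to FOS went from -1.28 ± 0.28 to 0.71 ± 0.17, FOSL2 to FOSL1 from -2.32 ± 0.04 to -1.42 ± 0.18, and FOSB to FOSL2 from -1.44 ± 0.24 to -0.47 ± 0.16. Libraries did not overlap for these 6 ratios, and each had the smallest p that the exact permutation test allows (p = 0.1, 0.117 adjusted over 7 pairs). The ratios share members and use the same counts as the edgeR test, so they are not separate results. For FOSL1 to FOS the ratio was 2.48 ± 0.30 and 2.60 ± 0.22, with overlapping libraries (exact permutation p = 0.6). On this per-length scale, JUN was below JUND in all 3 Vehicle libraries and above it in all 3 TGFB1 libraries, and likewise FOSB was below FOS in every Vehicle library and above it in every TGFB1 library. Without division by length, JUN was above JUND in all 6 libraries, so that crossing rests on the annotated lengths. FOSB and FOS crossed on both scales. JUNB and JUN had near-equal Vehicle means without that division (35.7 and 35.6 CPM), so their Vehicle ratio rests on the lengths too. The change in a ratio between the groups does not depend on them.

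**Figure D4:**
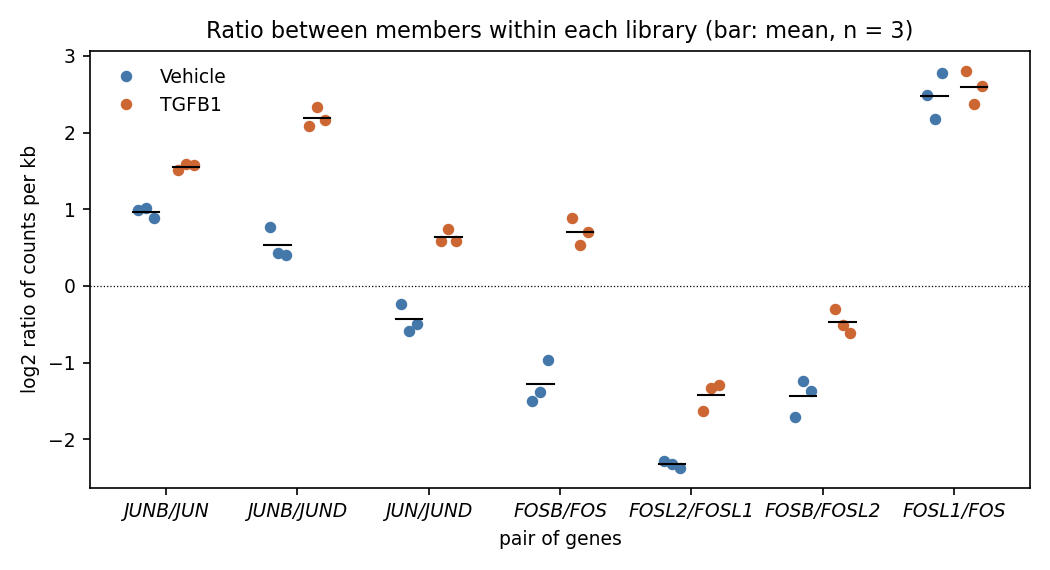
Log2 ratio of the counts per kb of 2 members within a library (y axis) for 7 pairs (x axis), with 1 point per library, blue for Vehicle and orange for TGFB1, and a bar for the mean. The groups separate for 6 pairs and overlap for FOSL1/FOS, and JUN/JUND and FOSB/FOS cross 0 on this per-length scale.

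Other bZIP genes, taken from a list of 41 symbols, gave 3 calls among 37 tested (8.11%, against 3.31% of all genes tested). All 3 were higher, and the median log2 fold change of the 37 was -0.0048. Of 17 tested AP-1, ATF and CREB genes outside the family, 0 were called by edgeR, DESeq2 or limma-voom, and 2 had an unadjusted p under 0.05. Of all 16690 genes tested, 3.31% were called and 2048 had an unadjusted p under 0.05. Nothing is therefore read from the 0 or the 2. The most abundant were ATF4, the effector of the integrated stress response, at 367.5 ± 13.1 and 366.2 ± 13.4 CPM, and ATF6, a sensor of endoplasmic reticulum stress, at 127.2 ± 6.38 and 112.1 ± 9.15 CPM (SD, n = 3 each). ATF6 did not pass with all libraries (log2 fold change -0.18, adjusted p = 0.0985) and passed without Vehicle replicate 3 (0.0230) or TGFB1 replicate 2 (0.0457).

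Among 11 tested MAF, CNC and BACH genes, 2 rose and 0 fell, against 2.43% and 0.887% of all genes tested. Nothing is read from counts this small, here or in the list of C/EBP and PAR genes. The large MAF gene MAF stood at 70.7, 70.9 and 73.3 CPM in Vehicle and 88.8, 88.2 and 91.1 CPM with TGFB1, a narrow but separate step (log2 fold change 0.32 ± 0.06 SE, adjusted p = 0.000231). NFE2L2, which encodes NRF2, a partner of small MAF proteins, had means of 87.4 ± 2.78 and 85.5 ± 3.15 CPM (SD, n = 3 each) and is named outside the rule for named genes, after its values were seen. In the list of C/EBP and PAR genes, CEBPB, which encodes a factor of inflammatory and adipogenic programmes, was the 1 call of 9 tested (69.8 ± 2.05 to 81.0 ± 4.74 CPM, log2 fold change 0.21, adjusted p = 0.0365). That call was lost with upper-quartile scaling (0.0576), with limma-voom (0.0608) and on leaving out Vehicle replicate 1 (0.133) or 2 (0.123) or TGFB1 replicate 1 (0.297) or 3 (0.189).

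Of the kinase genes upstream of AP-1, the factors that act on its promoters and the genes for its turnover, 1 of 15, 1 of 9 and 0 of 5 tested were called, against 3.31% of all genes tested, and nothing is read from counts this small. In the MAP kinase route, MAP3K1, a kinase that feeds into JNK, rose from 77.1 ± 1.52 to 106.4 ± 4.05 CPM (SD, n = 3 each, log2 fold change 0.46, adjusted p = 2.6e-07), and 0 fell. Among the promoter factors, the ternary complex factor gene ELK3 rose from 58.0 ± 3.63 to 77.3 ± 9.79 CPM (log2 fold change 0.41, adjusted p = 0.000464), and 0 fell. Without Vehicle replicate 3 each of these lists had 2 higher, with MAP2K1 (adjusted p = 0.0368) and MEF2A (0.00620) added. Of the genes that degrade or mark AP-1 proteins, 0 were called by edgeR, DESeq2 or limma-voom. None had an unadjusted p under 0.05, against 2048 of all 16690 genes tested, and nothing is read from that either. The most abundant were the ubiquitin ligase gene ITCH (92.3 ± 3.96 and 94.7 ± 6.99 CPM) and the kinase gene GSK3B (83.6 ± 4.64 and 82.9 ± 8.01 CPM).

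Of 21 tested genes known as AP-1 targets, 8 rose and 1 fell, against 2.43% and 0.887% of all genes tested. The list was drawn up with earlier results of these data known, so its count is no independent evidence. Its median log2 fold change was 0.13. IL11 and LIF, cytokine genes of the IL6 family, stood at 12.0 ± 0.725 and 19.0 ± 2.04 CPM in Vehicle and at 67.2 ± 1.55 and 73.1 ± 2.68 CPM with TGFB1 (SD, n = 3 each). Smaller rises were those of the chemokine gene CCL2 (log2 fold change 1.30), the angiogenic factor gene VEGFA (1.05) and the heme oxygenase gene HMOX1 (0.69). The 1 that fell was CXCL8, which encodes the chemokine interleukin 8, at 54.4, 46.4 and 45.5 CPM in Vehicle and 36.2, 41.6 and 31.6 CPM with TGFB1 (log2 fold change -0.42, adjusted p = 0.00352). It was named after its values were seen. The matrix metalloprotease genes MMP1 and MMP3, textbook AP-1 targets named after their values were seen, did not pass and had log2 fold changes of -0.22 (adjusted p = 0.522) and -0.46 (0.241).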

How the data were processed

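RNA-seq reads were measured in 6 libraries of A375 cells, 3 given TGFB1 and 3 Vehicle, grouped by the labels. The authors deposited raw read counts per Ensembl gene ID; cutadapt, TopHat2 2.1, HTSeq and build GRCh38 are named per the submitters' processing notes. Annotation release and strand setting: not given in the sources used here. Gene IDs were matched to symbols by ID, and exon lengths and coordinates are those of GENCODE 29.

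Low-count genes were removed by filterByExpr (minimum count 10, minimum total 15), and libraries were scaled by TMM. Group differences were tested in edgeR 4.0.16 (R 4.3.3) by a robust quasi-likelihood fit with the group alone, with Benjamini-Hochberg adjustment over 16690 genes and a threshold of 0.05. The SE is the absolute log2 fold change divided by the square root of F, and the 95% interval uses the fit's degrees of freedom. The test, but not the SE or the interval, was tried on simulated counts for recovery of changed genes and their direction. Alternatives included DESeq2 1.42.0 and limma-voom (limma 3.58.1). Shares and ratios were compared by exact permutation over libraries.

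The members and gene lists were chosen with earlier results of these data known. Named genes are all members, those sharing exons with one, and from each other list up to 6 called genes, taken by p, or else the 2 highest in CPM; 2 of these are not reported here.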

Additional observations from a re-analysis of the deposited data

How the results depend on the processing

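The 5 rises of the family held in all 15 alternatives run: DESeq2's size factors, upper-quartile scaling, total counts, no low-count filter, a filter of 50 counts in 3 libraries, DESeq2, limma-voom, a threshold of 0.01, the replicate block and leaving out each of the 6 libraries. Their largest adjusted p over these was 1.4e-07 (FOSL2), and the other 5 members were called in 0 of 15. Leaving out 1 library, the log2 fold change ran from 0.101 to 0.268 for JUND, from 0.0336 to 0.271 for FOSL1, from -0.0139 to 0.142 for FOS, from -0.0953 to 0.0227 for MAFF and from -0.0471 to 0.0612 for HOOK2, and the difference in the FOSL1 to FOS ratio from -0.0354 to 0.267. The difference in the FOS share ran from -4.36 to -2.17 percentage points, smallest without Vehicle replicate 2. The other shares and ratios kept their direction in every alternative run for them. Called genes among other lists changed in number: higher MAF, CNC and BACH genes were 1 with the filter of 50 counts and 1 to 2 leaving out a library, and higher C/EBP and PAR genes were 0 with upper-quartile scaling, limma-voom or a threshold of 0.01 and 0 to 1 leaving out a library. Higher AP-1 target genes, 8 with all libraries, were 6 at a threshold of 0.01 and 6 to 8 leaving out a library. Leaving out a library also gave 0 to 1 lower among other AP-1, ATF and CREB genes and among C/EBP and PAR genes, and 1 to 2 higher in the kinase and promoter factor lists. The cause was not tested.

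Replicate numbers are shared between groups, but same-numbered libraries did not deviate together (correlations of deviations from the group means of -0.0296, 0.0418 and 0.0076), and not every library correlated best with its own number. With the replicate as a block the family's count was again 5 higher, JUNB had a log2 fold change of 1.85, and 601 genes were called in all, against 553.

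The 3 libraries per group limit precision: members under 250 counts per library, such as BATF3 and FOS, have intervals that still include moderate changes.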

Other observations

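Several bZIP genes outside the family had an unadjusted p under 0.05 without passing the adjusted threshold, and are named here after their values were seen. Counting the called genes too, 11 of the 37 other bZIP genes tested had such a p, as did 2048 of all 16690. DDIT3, which encodes the stress factor CHOP, had means of 24.7 ± 2.24 CPM in Vehicle and 20.2 ± 1.62 CPM with TGFB1 (SD, n = 3 each), at a log2 fold change of -0.29 (adjusted p = 0.101). It passed without Vehicle replicate 3 (adjusted p = 0.0188). TEF, a clock-controlled PAR bZIP gene, had means of 11.8 ± 0.811 and 9.19 ± 0.395 CPM (log2 fold change -0.36, adjusted p = 0.110). CEBPD had means of 3.01 ± 0.294 and 2.12 ± 0.276 CPM (log2 fold change -0.51, adjusted p = 0.347), and MAFK, a small MAF gene like MAFF, 18.3 ± 2.67 and 21.6 ± 2.49 CPM (log2 fold change 0.25, adjusted p = 0.306). CEBPG and ATF1 were higher (log2 fold changes of 0.15 and 0.14, adjusted p = 0.209 and 0.356). NFE2, with means of only 0.714 and 0.312 CPM, was lower (log2 fold change -1.17, adjusted p = 0.356). ATF6 is given above.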
